A study of Homo sapiens with 6 samples.

Results

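Transcript clusters without a gene symbol made up most of the array. A transcript cluster is a group of probes that reads RNA from 1 stretch of the genome on 1 strand. Of 135748 clusters in the table, 98453 carried no symbol in the platform annotation used here, 36176 carried 1 symbol and 1119 carried several. Membership was set by this annotation alone and by no measured value. A cluster that the annotation does not list is unnamed here, which does not mean that no gene lies there.

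RNA outside annotated genes comes from long noncoding transcripts, antisense and enhancer transcription, introns of unspliced RNA, read-through beyond gene ends, pseudogenes and repeats. ATRX is an X-linked chromatin remodeler of the SWI/SNF-like family that, together with DAXX, deposits the histone variant H3.3 at repeats, heterochromatin and telomeres. Its loss is common in gliomas.

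The cells were LN229R, a temozolomide resistant derivative of the human glioblastoma cell line LN229, and the sample labels name LN229. ATRX KO cells (3 arrays) received Cas9, puromycin selection and sgRNAs against ATRX. ATRX NC cells (3 arrays) received Cas9, the same selection and a sgRNA without a target. Whether the KO cells were a clone or a pool, and whether the arrays came from separate cultures, is not given in the sources used here, so p-values measure the spread between these arrays, which may be technical.

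The ATRX cluster, TC0X00010126.hg.1, read 8.47, 8.67 and 8.75 in ATRX KO, against 10.49, 10.22 and 10.14 in ATRX NC on the log2 scale, which is 31.8% of the NC level (limma adjusted p = 0.00496). The arrays correlated at 0.977 to 0.982 within groups and at 0.970 to 0.972 between groups. The brighter of a pair of clusters for VIM, the intermediate filament of mesenchymal and glioma cells, read 17.05 to 17.10 in ATRX KO and 16.9 to 17.15 in ATRX NC. Its dimmer cluster changed by -0.67 and missed the test. GFAP, the astrocyte filament, and OLIG2, an oligodendrocyte lineage factor, were dim, GFAP with 5.00 to 5.67 in ATRX KO and 5.16 to 5.35 in ATRX NC. Of 7 glioma, neural and glial markers S100B and NES were lower in ATRX KO, by -2.93 and -1.02 on the log2 scale (limma adjusted p = 0.000298 and 0.0363), while EGFR (0.94) and SOX2 (0.44) missed the test. Of 7 fibroblast markers FAP, LUM and DCN were higher in ATRX KO by 5.19, 3.52 and 2.28, as was the dimmer of a pair of COL1A1 clusters by 1.45. The brighter COL1A1 cluster (-0.31), ACTA2 (-0.09), THY1 (0.48) and both COL1A2 clusters (0.68 and -0.55) missed the test. By their numbers the clusters of each pair, for VIM too, lie on opposite strands, so each pair may hold a cluster that reads antisense RNA. Which cluster reads the strand of the gene was not checked. The part of these markers in the results below was not tested.

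Clusters without a symbol were dim. Their median level over the 6 arrays was 5.07, against 6.04 for clusters with 1 symbol, and 27.6% of them lay above a log2 level of 6. Their levels still reached the top of the scale, at 19.93. The median SD within groups was 0.32, against 0.24 for clusters with 1 symbol, and 0.28 for such clusters once weighted to the same levels. Weighting was done in bins of mean level 0.5 wide.

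After ATRX loss, 224 clusters without a symbol were higher and 607 were lower in ATRX KO (limma, adjusted p under 0.05 over all clusters of the table). These were 0.228% and 0.617% of the members. Over all 135748 clusters 0.731% were higher and 0.846% were lower, and 1.58% passed in either direction, against 0.844% of the members. In all 831 called members the arrays of both groups lay apart. Separation alone was far more common than a call. Groups lay apart with KO higher in 7.05% and with KO lower in 9.53% of all members, and in 10.2% and 10.0% of all clusters. The median change among the called members was 1.51 for those that rose and -1.35 for those that fell, and the smallest was 0.91 in size. Leaving out any 1 of the 6 arrays cut the counts to between 85 and 127 higher and between 167 and 289 lower.

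The clusters without a symbol differed from named clusters of the same brightness in how often they rose, and less in how often they fell. At matched level, 0.228% of the members were higher in ATRX KO, against 1.0% of clusters with 1 symbol, while 0.617% of the members and 0.616% of clusters with 1 symbol were lower. The median change was -0.02 in the members and 0.06 in clusters with 1 symbol at matched level. Only 2 members lay in bins that held no cluster with 1 symbol. The share that rose was smaller in the members under every alternative that was run. The order of the shares that fell was not fixed: it was 1.87% of members against 1.36% with a variance trend and a robust fit, and 0.106% against 0.198% with the methods' t-test after adjustment. No test of these differences was made, since clusters share the same 6 arrays.

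Most of the falls came from the brighter of the members. Members above a log2 level of 6 held 491 of the 607 falls and 143 of the 224 rises. Above level 6, 1.8% of members fell, against 1.91% of clusters with 1 symbol at matched level, and 0.525% rose, against 2.87%. Between levels 9 and 10, 79 of 1514 members fell and 16 rose, whereas 78 of 1889 clusters with 1 symbol fell and 79 rose. The share that fell was also higher in members at levels 7 to 8, 2.2% against 1.92%. It was lower at levels 6 to 7 (0.802% against 1.0%), 8 to 9 (3.23% against 3.35%), 10 to 12 (3.59% against 3.65%) and 12 to 16 (1.25% against 3.99%). The median change of the members was most negative at a mean level of 8 to 9, with -0.141. Array medians there were 8.37, 8.34 and 8.32 in ATRX KO, against 8.50, 8.55 and 8.49 in ATRX NC. Every KO array was below every NC array at that level. The shift was not seen at all levels: the levels below 6 had median changes of -0.0056, 0.0005 and -0.005, and those above 12 had 0.012 and 0.009. Among the 556 members above a level of 16, none passed the test, and 11 of 336 such clusters with 1 symbol rose and 4 fell.

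**Figure D1:**
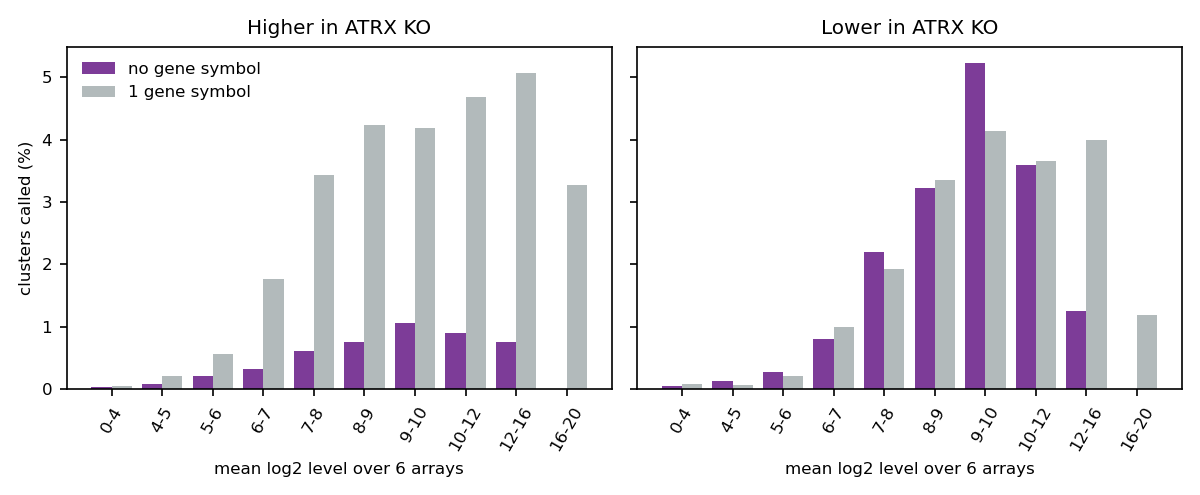
Percentage of clusters called (limma, adjusted p under 0.05) by mean log2 level over the 6 arrays, for clusters higher (left) and lower (right) in ATRX KO, without a gene symbol (purple) or with 1 symbol (grey). Between levels 9 and 10 the share that fell was 5.22% without a symbol and 4.13% with 1 symbol, and the share that rose was 1.06% and 4.18%. Between levels 8 and 9 the share that fell was 3.23% and 3.35%, and between levels 10 and 12 it was 3.59% and 3.65%.

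The largest rise belonged to TC0200012281.hg.1 on chromosome 2, which numbers between PIRAT1 and HNRNPLL. It read 8.94, 9.17 and 9.0 in ATRX KO, against 4.62, 5.28 and 4.71 in ATRX NC, a change of 4.17 ± 0.23 (SE, limma adjusted p = 0.0001). All KO arrays were above all NC arrays, which was a condition for a cluster to be named here. Both named neighbours missed the test (limma adjusted p = 0.662 and 0.688). TC1000009674.hg.1 on chromosome 10, beside CALML3-AS1 and ASB13, gave 9.25, 9.35 and 9.27 in ATRX KO and 5.36, 4.82 and 5.56 in ATRX NC. TC1900006814.hg.1 on chromosome 19 was the brightest of the 10 largest rises, with 11.02, 11.10 and 11.10 in ATRX KO and 6.72, 7.22 and 7.46 in ATRX NC. Neither pair of groups overlapped, by the same condition.

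A named neighbour that passed the test in the same direction was present for 1 of the 10 largest rises. TC2200008035.hg.1 on chromosome 22 had 9.63, 9.94 and 9.90 in ATRX KO against 6.74, 6.14 and 6.71 in ATRX NC, and the next cluster in number, the pseudogene USP41P, rose by 4.71 (limma adjusted p = 0.000188). TC1700011444.hg.1 followed PECAM1, an endothelial and leukocyte adhesion molecule, and read 8.81, 9.17 and 8.97 in ATRX KO, against 5.97, 3.73 and 5.53 in ATRX NC. Its NC arrays were spread widely, and PECAM1 itself changed by 1.52 at limma adjusted p = 0.056. The other rises of this group, on chromosomes 1, 7, 17, 18 and 21, measured 3.18 to 3.92.

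The largest fall was beside a gene that fell as well. TC0700012233.hg.1 on chromosome 7 read 4.22, 3.83 and 4.40 in ATRX KO, against 8.50, 8.27 and 7.01 in ATRX NC, a change of -3.78 ± 0.38 (SE, limma adjusted p = 0.00226). The cluster 3 numbers before it belongs to NRCAM, a neuronal cell adhesion molecule, which changed by -3.86. The groups were separate in both, which the choice had required of TC0700012233.hg.1. Of the 10 largest falls, 3 more followed a named gene that fell.

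TC0500011165.hg.1 follows CERT1, the ceramide transfer protein, and read 5.71, 4.54 and 5.65 in ATRX KO, against 8.0, 7.89 and 8.17 in ATRX NC, while CERT1 changed by -1.79. TC1700009696.hg.1 follows MYH10, a nonmuscle myosin heavy chain, and read 7.66, 7.78 and 8.32 in ATRX KO, against 10.52, 10.66 and 10.55 in ATRX NC, while MYH10 changed by -1.91. TC0300008131.hg.1 follows COL8A1, a collagen chain, and read 9.83, 9.84 and 9.93 in ATRX KO, against 12.67, 12.11 and 12.64 in ATRX NC, while COL8A1 changed by -1.79. None of these groups overlapped, again by the condition for naming them.

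Other large falls stood beside genes that did not pass. TC0X00008017.hg.1 on chromosome X, the brightest of them, read 12.67, 12.63 and 12.91 in ATRX KO, against 15.28, 15.29 and 15.43 in ATRX NC. TC1900009290.hg.1, between DOHH and FZR1, read 6.53, 6.11 and 6.79 in ATRX KO, against 9.60, 10.02 and 9.97 in ATRX NC. TC1400009384.hg.1 had the least secure call of the 20, with 5.07, 4.59 and 6.27 in ATRX KO and 7.63, 7.83 and 8.18 in ATRX NC (limma adjusted p = 0.0181, and up to 0.083 under the alternatives other than the methods' t-test).

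**Figure D2:**
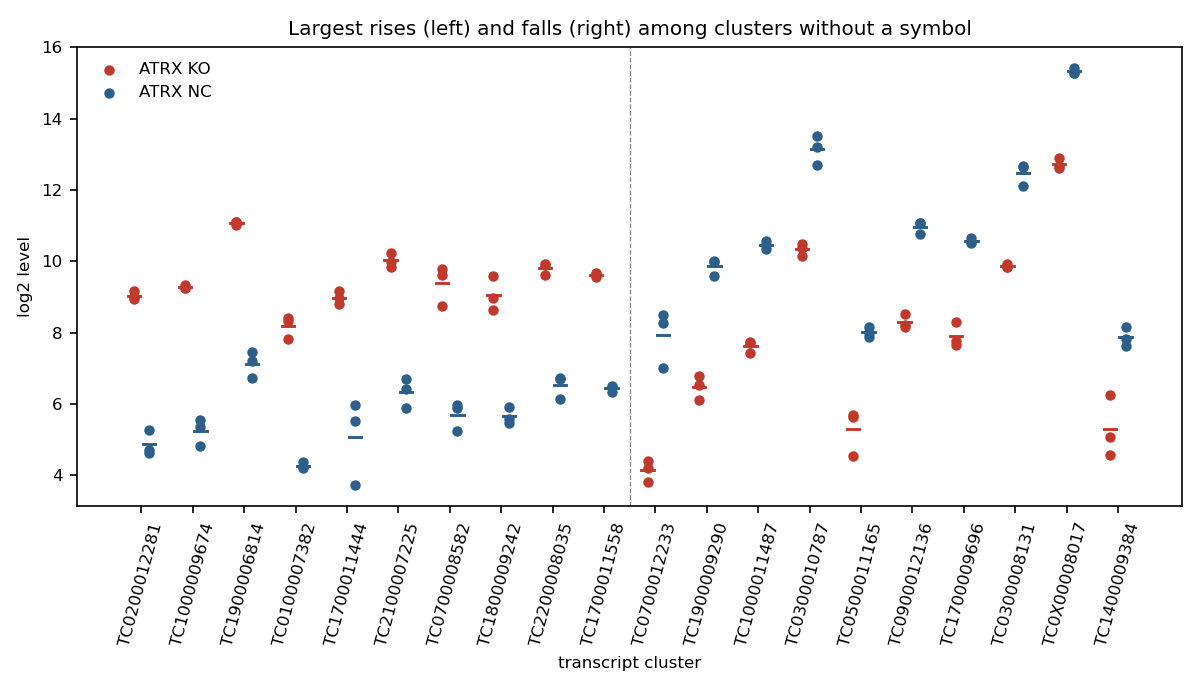
Log2 level on each of the 6 arrays (points) and group means (short lines) of the 10 clusters without a symbol that rose most and the 10 that fell most, ATRX KO in red and ATRX NC in blue. Separate groups were a condition of the choice, so in every cluster shown the 3 KO points lie wholly above or wholly below the 3 NC points. An example is 8.94 to 9.17 against 4.62 to 5.28 in TC0200012281.hg.1.

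The number in a cluster's identifier followed position on the chromosome. The chromosomes held a numbering series for the forward strand and another for the reverse strand, as 13939 of 14002 named clusters with a RefSeq strand fitted (99.6%). Strand was not checked on chromosome 8, and 2085 members with the last numbers of a chromosome lay outside both series. Of 21851 steps between located clusters of a series 99.4% went forward. Cluster number therefore served as a proxy of place and strand, and no coordinates were used.

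Most called members had no called gene beside them, and where one was called it had nearly always changed in the same direction. Of 600 members that fell and had a cluster with 1 symbol within 10 numbers, 109 were nearest to one that fell (18.2%) and 2 to one that rose. Over all 95886 members with such a neighbour, 1.79% were nearest to one that fell. Of 220 members that rose, 32 were nearest to a named cluster that rose (14.5%) and 1 to one that fell, against 2.11% of all members. The shares differed by side, where after means a higher number. Numbers rise with the RefSeq start in both series, so a member after a gene can lie inside it. On the reverse strand a higher number does not mean downstream. Of 566 falling members, 113 came after a named cluster that fell, and of 531, 28 came before one (5.27%). For rising members the shares were 18.4% after and 4.69% before a named cluster that rose. Neighbours are read on the same arrays and can belong to 1 RNA, so no test was made.

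Members placed inside a named gene on its own strand were mostly below 0 in genes that fell and above 0 in genes that rose. A member counted as inside when the located clusters before and after it in its series both started within the gene's RefSeq span, which held for 1234 members in 431 genes, while the place of 96888 members was not settled by this rule. Their median change was -0.15, against 0.06 for clusters with 1 symbol at matched level. The 82 members inside genes that fell had a median change of -0.70, and 87.8% of them were below 0, with 11 called lower. The 84 members inside genes that rose had a median of 0.20, and 31.0% of them were below 0, with 4 called higher. Most, 1068, lay inside genes that did not pass, with a median of -0.15, 12 called lower and 1 called higher. Across the 1234 members the change correlated with that of the host gene at Pearson r = 0.41 and Spearman rho = 0.37, given as a description because the points share arrays and hosts. For 331 members inside the span of a gene on the other strand only, the same values were 0.03 and 0.08.

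IGF1R, PDE4D and FOXP2 were chosen after their values were seen, as the host genes with at least 3 called members. IGF1R, a growth factor receptor tyrosine kinase, changed by -0.995 ± 0.184 (SE, limma adjusted p = 0.0387). All 8 members inside it changed by -0.68 to -1.91, and 4 passed the test. The lowest p among them belonged to TC1500008491.hg.1, with 8.32, 8.12 and 7.77 in ATRX KO against 9.91, 10.05 and 9.99 in ATRX NC, and these groups lay well apart.

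PDE4D, a cAMP phosphodiesterase, rose by 2.22. Its 12 inner members changed by 0.16 to 2.46, and 3 passed. TC0500010852.hg.1 was the largest, with 7.93, 8.26 and 7.43 in ATRX KO against 6.04, 5.90 and 4.30 in ATRX NC. FOXP2, a forkhead transcription factor, missed the test itself at -1.02 (limma adjusted p = 0.0838), while 3 of 4 members inside it fell. TC0700008851.hg.1 there read 5.92, 6.32 and 6.60 in ATRX KO, against 8.65, 8.29 and 8.12 in ATRX NC, with no overlap. Grouped by length of the host gene, in 5 groups from the shortest to the longest, members above a level of 6 had median changes of -0.20, -0.22, -0.43, -0.36 and -0.10, with no steady order.

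**Figure D3:**
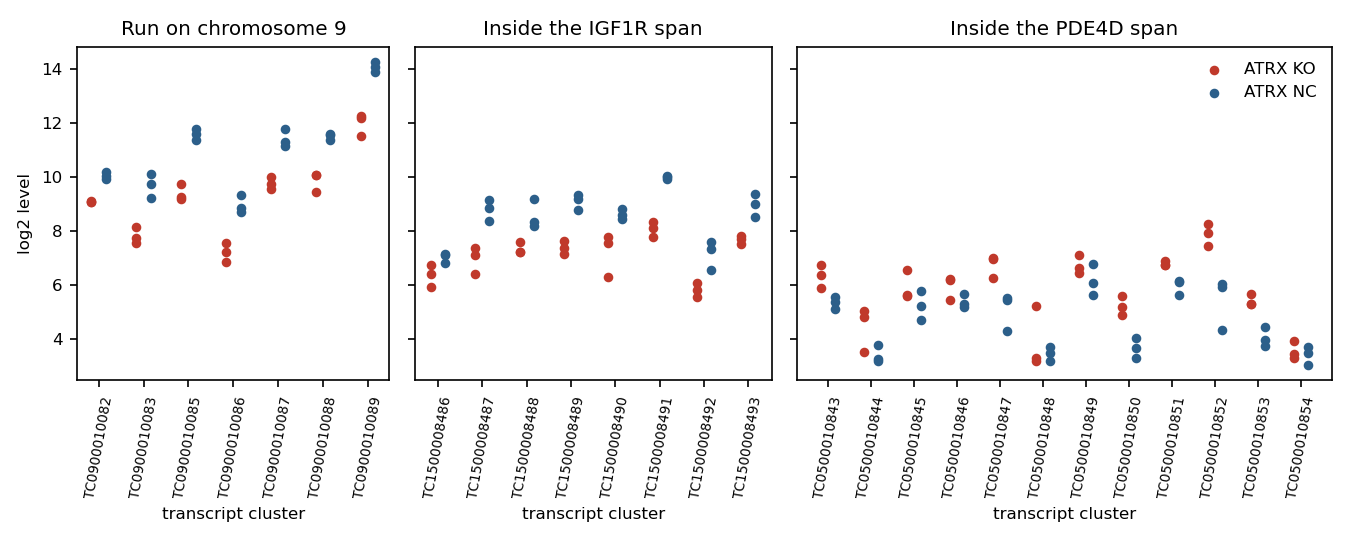
Log2 level on each array (points) of neighbouring clusters without a symbol, ATRX KO in red and ATRX NC in blue, for the longest run on chromosome 9 (left) and for clusters inside the IGF1R span (middle) and the PDE4D span (right). A run holds only clusters called in the same direction, and the 7 of this one changed by -0.96 to -2.20.

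Some called members stood in runs. A run was a string of members in number order, at most 10 numbers apart, all called in 1 direction. There were 58 runs of falls and 8 of rises, holding 145 of 607 falling members (23.9%) and 16 of 224 rising members (7.14%). All 15 runs of 3 or more were falls. Falls were also more numerous, and the difference between these shares was not tested.

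The longest run held 7 members on chromosome 9, TC0900010082.hg.1 to TC0900010089.hg.1, between the pseudogenes RN7SL763P and CNN2P2. The brightest of them, TC0900010089.hg.1, read 12.26, 12.17 and 11.53 in ATRX KO, against 13.88, 14.07 and 14.25 in ATRX NC. The pseudogenes on either side changed by -0.17 and 0.15 and missed the test.

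A run of 5 lay on chromosome 7 after LINC03009, a long noncoding RNA, with changes of -1.15 to -1.81. Its member TC0700008108.hg.1 read 10.27, 10.31 and 10.55 in ATRX KO, against 12.17, 12.40 and 11.70 in ATRX NC. LINC03009 changed by -0.71 at limma adjusted p = 0.121. Another run of 5, on chromosome 17 before SLC39A11, a zinc transporter, changed by -1.18 to -1.71, while SLC39A11 changed by 0.18 at limma adjusted p = 0.744.

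Of 6 runs of 4, those with the largest mean change followed MAML3, a coactivator of Notch signaling that changed by -1.34, and the pseudogene MTND6P2, which changed by -1.51. The member TC0400011961.hg.1 after MAML3 read 6.5, 5.57 and 5.63 in ATRX KO, against 8.32, 8.68 and 8.18 in ATRX NC. TC0500010038.hg.1 after MTND6P2 read 6.51, 5.99 and 6.37 in ATRX KO, against 8.60, 9.04 and 8.62 in ATRX NC. The groups were separate in both, and both named clusters passed the test (limma adjusted p = 0.00941 and 0.00586). The other 4 followed MIR569, RPS15AP18, ZEB2 and EHBP1, which changed by -0.42, -0.29, -0.61 and -0.97 and missed the test (limma adjusted p = 0.416, 0.562, 0.154 and 0.062).

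By chromosome the shifts were small and of like size. The median change of the members lay between -0.05 and 0.01 on the 24 chromosomes. For clusters with 1 symbol weighted to the same levels it lay between 0.03 and 0.09 and was above 0 on all 24. The sign of such small medians is relative to the common scale of the arrays. Falls outnumbered rises on 21 chromosomes, and rises outnumbered falls on chromosomes 18, 22 and X. Chromosomes Y, 9 and 13 had the lowest medians, -0.05, -0.05 and -0.04. That of Y was -0.028 without KO array 1 and -0.017 without NC array 1. Y also had the lowest median level of the 24, 4.72, and of its 447 members 2 were lower and 0 higher. Whether the clusters of Y read above background was not tested. Chromosomes 22, 18 and 19 had the highest, 0.0077, -0.0012 and -0.0031. The sign of the last pair was not fixed: chromosome 18 had 0.0023 after repeated quantile normalization and 0.0056 without KO array 3, and chromosome 19 had 0.0053 without NC array 1. The 12 members of the mitochondrial chromosome were bright, with a median level of 14.15 and a median change of 0.33, and none passed the test. Another 543 members had no chromosome in their identifier.

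**Figure D4:**
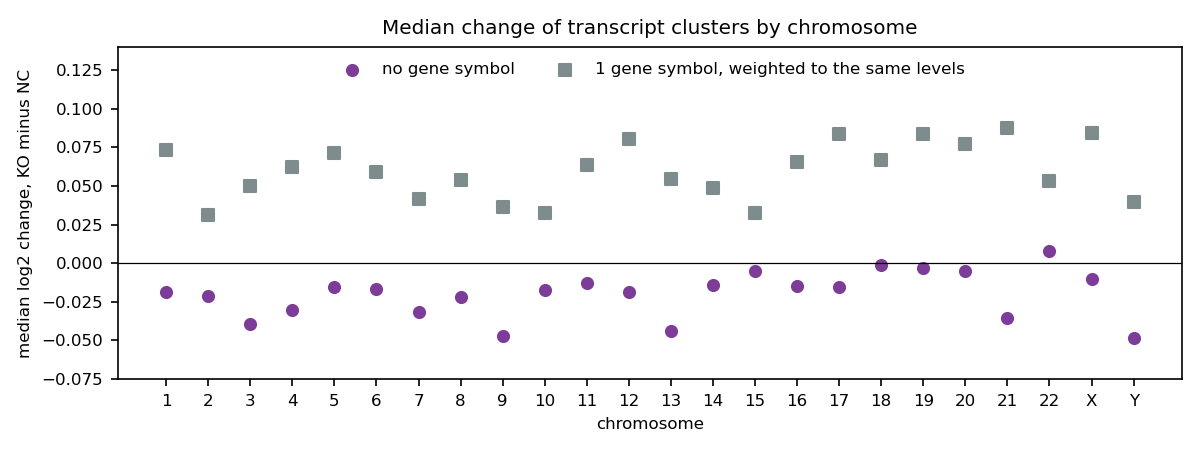
Median log2 change (ATRX KO minus ATRX NC) by chromosome, for clusters without a symbol (purple circles) and for clusters with 1 symbol weighted to the same levels (grey squares). The circles lie below the squares on all 24 chromosomes, between -0.05 and 0.01 against 0.03 to 0.09.

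Chromosome 9 had the largest share of falls, among members and named clusters alike. There 53 of 4257 members were lower and 6 were higher in ATRX KO, so that 1.25% fell, against 1.0% of its clusters with 1 symbol at matched level. When the members were taken in number order in 477 windows of 200, the window from number 7255 to 7535 had the lowest median of all, -0.29, and the next lowest, on the same chromosome, had -0.15. Its array medians were 5.75, 5.85 and 5.87 in ATRX KO, against 6.11, 6.24 and 6.22 in ATRX NC, with no overlap. In it 12 members fell and none rose, and 146 of 200 were below 0. The 74 clusters with 1 symbol in the same stretch shifted alike, with a median change of -0.26, and 2 of them fell.

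The window from 7255 to 7535 and 2 from the other numbering series, 9938 to 10213 and 10214 to 10496, held 33 of the 53 falls of the chromosome. They were picked as the windows of the chromosome with the lowest medians, so a smaller share outside them was built in: 20 of the other 3657 members fell (0.547%). The named clusters there include many pseudogenes and duplicated families, such as MYO5BP1, FAM27E3, CNN2P2 and CNTNAP3. Copies of this kind can share probes: 2 of the 33 falling members had the same value on all 6 arrays, so their levels are uncertain. TC0900007269.hg.1, near MYO5BP1, was the brightest of the 12 in the first window, with 11.54, 10.95 and 10.74 in ATRX KO against 13.45, 13.27 and 13.38 in ATRX NC. In the third window the named genes BANCR, a long noncoding RNA, and TRPM3, a cation channel, fell by 2.64 and 2.60.

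Chromosome 6 held the windows at the other end. The windows from 11108 to 11462 and from 7126 to 7443 had the highest medians of the 477, 0.13 and 0.09. Their array medians were 5.50, 5.33 and 5.42 in ATRX KO and 5.31, 5.33 and 5.25 in ATRX NC for the first, and 5.26, 5.12 and 5.21 in ATRX KO and 5.12, 5.01 and 5.03 in ATRX NC for the second. The groups overlapped in the first and were barely separate in the second. Together they held 10 members that rose and none that fell, out of 400. Their clusters with 1 symbol had median changes of 0.24 and 0.26.

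These windows cover the replication-dependent histone genes, which encode the core and linker histones made in S phase. Of 55 named histone clusters on chromosome 6, a list chosen after seeing the data, 21 were higher in ATRX KO and none was lower, with a median change of 0.82. Over all clusters with 1 symbol 2.02% were higher and 1.44% were lower. The 39 members nearest to a histone cluster had a median change of 0.40, 29 of them were above 0 and 3 passed the test. Over all members 0.844% passed in either direction. TC0600007383.hg.1, next to H2BC17, read 11.69, 11.70 and 12.01 in ATRX KO, against 10.43, 10.26 and 10.29 in ATRX NC. TC0600011144.hg.1, between H2AC10P and H4C8, read 9.58, 9.91 and 9.64 in ATRX KO, against 8.06, 8.52 and 7.87 in ATRX NC. The groups lay apart in both, and the other 7 rising members of these windows were nearest to zinc finger, olfactory receptor and other genes.

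**Figure D5:**
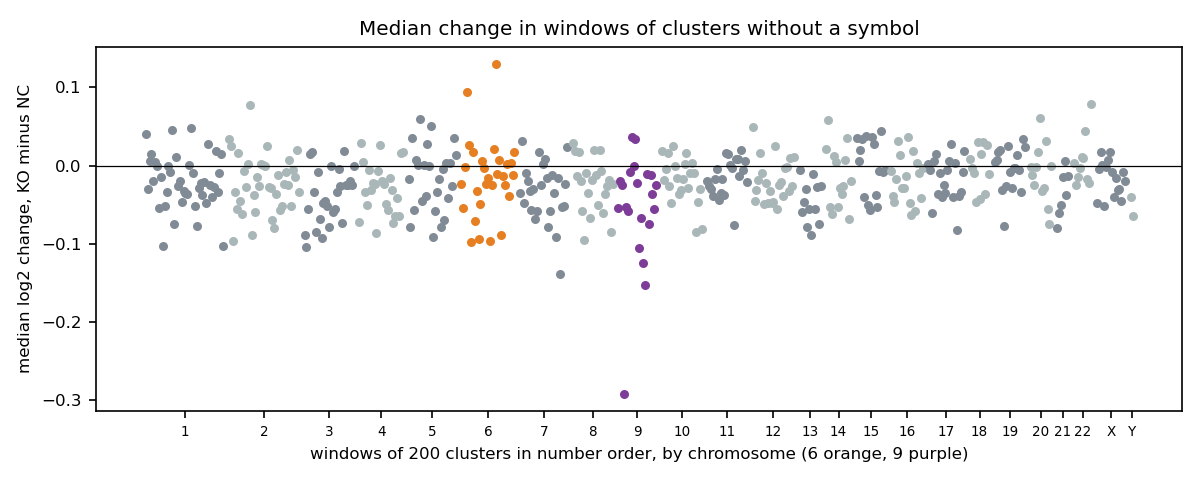
Median log2 change (ATRX KO minus ATRX NC) in 477 windows of 200 clusters without a symbol, in number order by chromosome, chromosome 6 in orange and chromosome 9 in purple, the rest in grey. The lowest point, -0.29, is on chromosome 9 and the highest points, 0.13 and 0.09, are on chromosome 6, while the middle of the windows lay between -0.046 and 0.0027 (quartiles).

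None of the 5 brightest members passed the test. TC1300009757.hg.1 read 19.93 on all 6 arrays, the top value of the table, where a change could not be seen. The 5 members with the widest spread within groups were dim, and none passed. TC0800011806.hg.1 was the most variable, with 6.71, 7.16 and 6.29 in ATRX KO and 4.08, 9.13 and 5.19 in ATRX NC, where 1 NC array lay above and the other 2 below all KO arrays. In 269 groups, 646 members shared all 6 values with another member, and 6 of these members were called.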

How the data were processed

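RNA of 3 ATRX KO and 3 ATRX NC samples was measured on 1 array each. The deposited values are log2 levels. Per the study's methods, the authors put the arrays on a common scale by limma's quantile procedure before deposition. The methods speak of Agilent arrays, but the cluster identifiers and the labelling reagents belong to an Affymetrix design. For the array build, the background step and the summary of probes, the sources used here give nothing. Values ran from 1.70 to 19.93. No detection call, probe sequence or probe number was used, and precision is set by the small number of arrays.

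Clusters were split by the platform annotation. Symbols were updated through RefSeq (GRCh38.p14), which served only for names, neighbours, strand and spans. The difference ATRX KO minus ATRX NC was fitted for all 135748 clusters at once by limma 3.58.1 (lmFit, eBayes) under R 4.3.3, with Benjamini-Hochberg adjustment over them and a threshold of 0.05. Robust fits used statmod 1.5.0. The code was tested on simulated data. Alternatives were other normalizations, a level filter, array exclusion, a replicate block, a variance trend, the methods' t-test and a 2-fold minimum.

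The named clusters are the 10 largest rises and 10 largest falls among called members with separate groups and a level above the median of all clusters, the 5 longest runs, the 5 brightest and 5 most variable members, the named clusters beside them, and the 3 chromosomes with the highest and lowest medians. Members and lists were chosen with earlier results of these data known.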

Additional observations from a re-analysis of the deposited data

How the results depend on the processing

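The median change of the members stayed below 0 and rises stayed rarer than falls under every alternative. Each scaling held the median change of all clusters near 0, from -0.0034 with median centring to 0.0063 with repeated quantile normalization. The sign of the members' median is therefore relative to the other clusters. The order of the shares that fell, members against clusters with 1 symbol, and the signs of the medians of chromosomes 18 and 19 turned. Counts stayed within 1.5 times of 224 and 607 under repeated quantile normalization, median centring, cyclic loess, a 2-fold minimum and 1 member per group of identical clusters (the last chosen after seeing the data). With only clusters above the median level, 591 members rose and 1476 fell, the median change was -0.042, and 1.35% rose and 3.38% fell, against 4.30% and 2.64% of clusters with 1 symbol at matched level. A variance trend with a robust fit gave 824 and 1837 members, 0.837% and 1.87%, against 2.24% and 1.36%. The methods' t-test gave 4003 and 5736 before adjustment, 4.07% and 5.83% against 8.20% and 4.64%. After adjustment it gave 66 and 104, 0.067% and 0.106% against 0.4002% and 0.198%. Without 1 array, 85 to 127 members rose (0.0863% to 0.129%) and 167 to 289 fell (0.170% to 0.294%), against 0.454% to 0.568% and 0.227% to 0.304% at matched level. Of the 20 named changes, 13 passed the t-test after adjustment, 19 or 20 passed without any 1 array, and all 20 passed in the other fits.

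With a replicate block 108 members rose and 219 fell, 0.110% and 0.222% against 0.547% and 0.268% at matched level. Over all clusters, arrays of the same number did not deviate together (correlations of -0.02, -0.02 and 0.0002). A pairing limited to some clusters would not show in these values, and what the numbers stand for is not given.

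With 3 arrays a group the test detects few changes of small size in dim clusters, so a member that did not pass is not shown to be unchanged.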

Other observations

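The 1119 clusters with several symbols entered no comparison above. Of these, 39 were higher and 20 were lower in ATRX KO, and their median change was 0.06 at a median level of 7.48.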
